A study of Mus musculus with 6 samples.

Results

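The 4 ErbB receptor genes (Egfr, Erbb2, Erbb3 and Erbb4) and 3 neuregulin genes (Nrg1, Nrg2 and Nrg3) were followed in RNA bound to tagged ribosomes from the mouse corpus callosum. They were chosen by gene symbol and are 7 of the 39017 genes in the count table, and all 7 passed the filter on low counts that left 16569 genes for testing. The mice were C57BL/6, carried RiboTag together with Olig1-Cre, and were described as young adult females aged 8 to 10 weeks. In such mice Cre adds an HA tag to the ribosomal protein RPL22, and an anti-HA antibody pulls down the tagged ribosomes. Since the switch is permanent, any cell whose ancestors once made Cre from the Olig1 locus can keep the tag. Control mice (replicates 24, 26 and 27, labelled Vehicle) were compared with mice fed a diet with 0.2% cuprizone (replicates 30, 31 and 32, labelled Cuz), which binds copper and leads to loss of oligodendrocytes and myelin. All groups shared the RiboTag and Olig1-Cre alleles. The protocol speaks of 6 or 9 weeks of feeding and 3 weeks of recovery on control diet, and none of the sources used here gives the stage at which the cuprizone libraries were taken, nor the diet of the controls during that time. Nothing in the labels says that the libraries of a group came from separate animals, so p-values measure the spread between libraries, which may be technical.

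ErbB receptors are tyrosine kinases that work in pairs at the cell surface. Neuregulins are growth factors with an EGF-like domain that bind ErbB3 or ErbB4. ErbB2 has no known ligand of its own and serves as a partner, while ErbB3 binds neuregulin but has very weak kinase activity and signals through its partner. EGFR binds the other branch of the family, among them EGF and TGF-alpha. In peripheral nerve, neuregulin on axons acting on ErbB2 and ErbB3 of Schwann cells sets myelin thickness. In the brain these receptors are found on oligodendrocytes and their progenitors, on astrocytes and, for ErbB4, above all on inhibitory interneurons.

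The receptors are close relatives, and the coding bases of the catalytic loop of the kinase domain show where Erbb3 departs from the others. These 30 bases lie in exon 21 of each transcript. The stretch is on chromosome 11, 16904338 to 16904367, for Egfr and on chromosome 11, 98434247 to 98434276, for Erbb2, both on the plus strand of GRCm38. It is on chromosome 10, 128572527 to 128572556, for Erbb3 and on chromosome 1, 68080733 to 68080762, for Erbb4, both on the minus strand. The sequences are from the GENCODE M21 transcripts, 5′ to 3′, and capitals mark codons 6 and 10.
Egfr: caccgtgacttggcaGCCaggaatgtaCTG
Erbb2: cacagggacctagctGCCcgaaacgtgCTA
Erbb3: catagggaccttgcgCTCcggaatgtgATG
Erbb4: catcgggatctggcaGCCcgcaatgtcTTA
Against Egfr, Erbb2 differs at 10 bases, Erbb3 at 11 and Erbb4 at 9. Counted from the first base shown, the changes in codon 6 of Erbb3 are G16C and C17T and that in codon 10 is C28A. Codons 6 and 10 of Erbb3 are the only ones in the 4 stretches that encode another residue than Egfr does. All other base differences leave the encoded residue as it is. The stretches were found by a search that required the same residue at most codons. A difference in residue could therefore appear only at the codons left free, codons 6 and 10 among them.

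Levels are given as CPM (counts-per-million), a gene's counts scaled to the same library size. The libraries held 18549360 to 18771737 counts in controls and 19455245 to 22381307 in cuprizone. Cuprizone replicate 32 stood apart from replicates 30 and 31, its chi-square over genes, per degree of freedom, being 85.1 and 101 against them and 26.6 between them. The labels call the cells oligodendrocytes, and oligodendrocyte genes were abundant in every library. The 15 mature oligodendrocyte genes summed to between 67646 and 88768 CPM in controls and between 8984 and 17164 CPM in cuprizone. Genes of other cell types were present too: 10 astrocyte genes summed to between 17030 and 32769 CPM over all 6 libraries and 10 neuronal genes to between 2200 and 4823 CPM. The 11 microglial genes summed to between 1194 and 4154 CPM. None of the 6 libraries is labelled as input or as lacking Cre, so the part of RNA pulled down without a tag was not tested. Rpl22, which encodes the tagged protein, was at 70.4 ± 7.14 CPM in controls and 76.4 ± 9.97 CPM in cuprizone (SD, n = 3 per group). Each group has 3 libraries, and all means below are given with their SD over these 3.

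Erbb3 was the member that fell. It went from 69.8 ± 4.94 CPM in controls to 19.5 ± 8.55 CPM in cuprizone, 3.57-fold lower, while Erbb2, Egfr and Erbb4 did not pass the test in either direction. Among the neuregulins Nrg2 was higher in each cuprizone library than in any control library but missed the threshold, and Nrg1 and Nrg3 overlapped between the groups. Of the 7 members 1 passed a Benjamini-Hochberg adjusted p of 0.05 in edgeR's quasi-likelihood test, where 7.57% of all genes tested did. It was lower, as were 5.70% of all genes tested. None was higher in edgeR, where 1.87% of all genes tested were. With a positive change, 1 member, Nrg2, had an unadjusted p under 0.05 in edgeR. Over all 16569 genes tested 3864 had such a p, in either direction. DESeq2 called Nrg2 higher, where it called 862 genes higher and 1400 lower in all, and limma-voom called no member higher. These totals are the background for all counts below at an unadjusted p or in DESeq2. For 2 members the groups did not overlap, as for 30.2% of all genes tested: Erbb3 was lower in cuprizone, as were 17.6% of all genes, and Nrg2 higher, as were 12.6%.

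**Figure D1:**
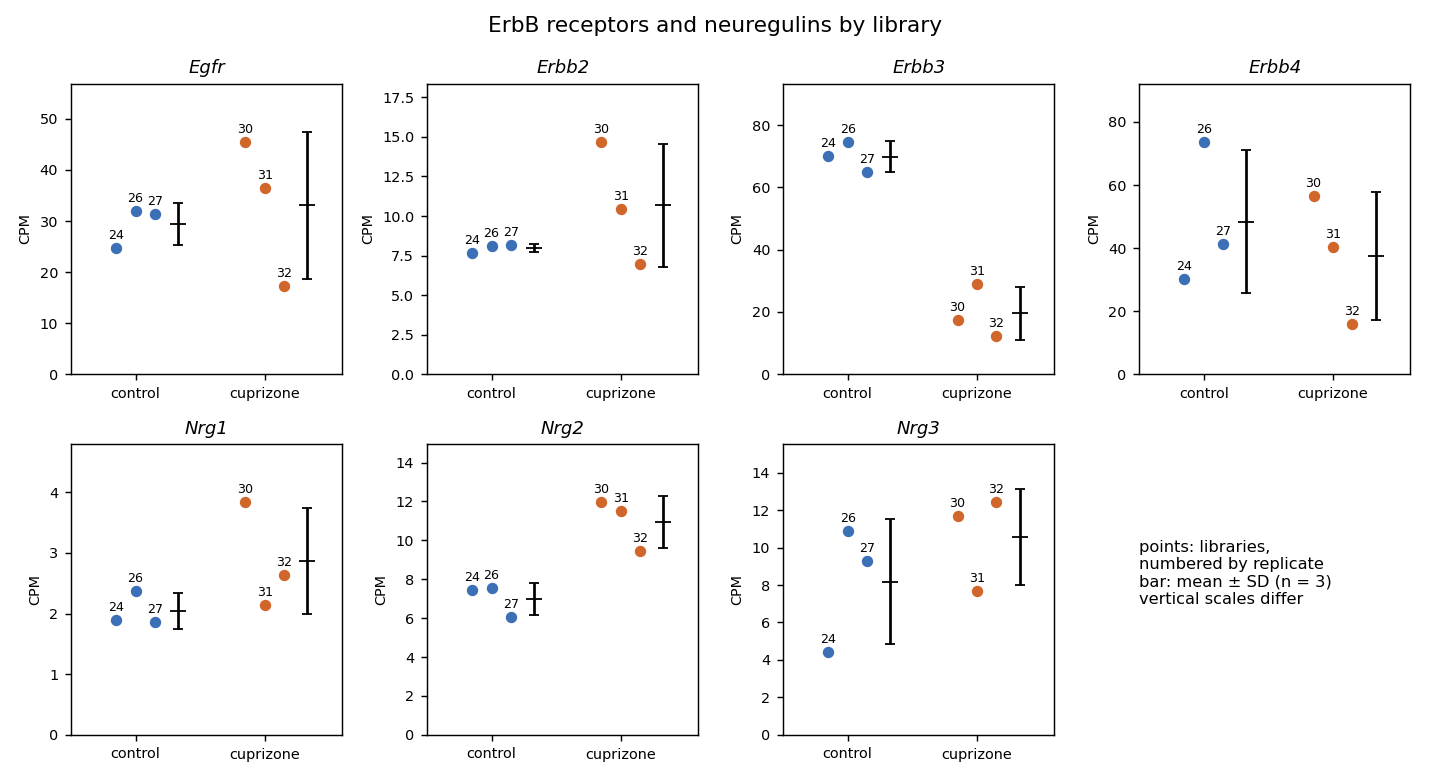
CPM of the 4 ErbB receptor and 3 neuregulin genes in each library (points, numbered by replicate), with the group mean and SD over 3 libraries as a bar and a separate vertical scale per gene. The cuprizone points of Erbb3, at 12.4 to 29.0 CPM, all lie below the control points at 64.8 to 74.6 CPM; Nrg2 is the other gene whose groups do not overlap.

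Erbb3 encodes the neuregulin receptor that depends on a partner (ENSMUSG00000018166, chromosome 10, 128567523 to 128589652, minus strand). In the control libraries 24, 26 and 27 it stood at 70.0, 74.6 and 64.8 CPM, from 1187, 1317 and 1112 reads. In the cuprizone libraries 30, 31 and 32 it stood at 17.3, 29.0 and 12.4 CPM, from 383, 678 and 262 reads. The highest cuprizone library, 31, was below the lowest control library, 27. The log2 fold change was -1.83 ± 0.29 (SE; 95% interval -2.53 to -1.14; edgeR adjusted p = 0.0121). The adjusted p was 0.0519 without control replicate 26 and 0.0597 without cuprizone replicate 30, and the fold change stayed between -2.24 and -1.59 whichever library was left out. Without cuprizone replicate 32 it was -1.59 (edgeR adjusted p = 0.0102). In ribosome-bound RNA of a whole tissue piece, fewer cells that hold the transcript and less of it per cell cannot be told apart.

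The fall of Erbb3 lay between the medians of the lineage genes and of the mature oligodendrocyte genes, with genes of both lists close to it. Zfp536, of the lineage list, was at -1.80 ± 0.32 and Trf, of the mature list, at -1.81 ± 0.34, beside -1.83 for Erbb3. Of 5 genes that mark the whole oligodendrocyte lineage, 4 fell and none had a lower value than Erbb3. Their median log2 fold change was -1.12, and 1 of them fell without control replicate 24 or 27 and 0 without control replicate 26 or cuprizone replicate 30. Sox10, the transcription factor that keeps the lineage in its fate, went from 814, 676 and 717 CPM in controls to 272, 428 and 231 CPM in cuprizone, a log2 fold change of -1.25 ± 0.25 (edgeR adjusted p = 0.0289, and up to 0.116 without either cuprizone replicate 30 or any 1 control). Olig2, a transcription factor of the lineage from progenitor to mature cell, had a log2 fold change of -0.46 and did not pass (edgeR adjusted p = 0.25, and 0.0288 without cuprizone replicate 31). All 15 mature oligodendrocyte genes fell, with a median of -3.02, and 14 of them had a lower value than Erbb3. These differences between genes were not tested. None of 7 progenitor genes passed in edgeR (1 was at an unadjusted p under 0.05, and neither DESeq2 nor limma-voom called any). Pdgfra, the progenitor receptor for platelet-derived growth factor, had a log2 fold change of -0.32 ± 0.31.

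Ratios within a library do not depend on how libraries are scaled. There were 0.0860, 0.110 and 0.0903 Erbb3 reads per Sox10 read in controls 24, 26 and 27. In cuprizone 30, 31 and 32 there were 0.0636, 0.0678 and 0.0535, each below every control. The mean log2 ratio differed by -0.63 between cuprizone and control (2-sided exact permutation p = 0.1, the smallest that 3 libraries against 3 allow). The corresponding difference for Erbb2 was 1.65 and for Egfr 1.36, with higher ratios in each cuprizone library than in any control (exact permutation p = 0.1 for each). That for Erbb4 was 0.85, with overlapping groups (exact permutation p = 0.3). Sox10 itself fell, with a log2 fold change of -1.25, so the ratio to it is higher for any gene that fell less. In CPM Erbb2 and Egfr had log2 fold changes of 0.42 and 0.17 and did not pass the test. In all 5 ratios were compared, and the Benjamini-Hochberg adjusted exact permutation p was 0.125 for 4 of them, that of Erbb3 to Erbb2 below included, and 0.3 for Erbb4 to Sox10.

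Over the 6 libraries, the pattern of Erbb3 was most like those of 3 genes made in oligodendrocytes. Likeness was measured as the root mean square difference between log2 CPM values after each gene was centred on its own mean, over 11199 protein-coding genes at 5 CPM or more. Trf, which encodes the iron carrier transferrin, was nearest at 0.06, St18, a zinc finger transcription factor, followed at 0.09, and Zfp536, another zinc finger protein, was also at 0.09. Trf is in the mature oligodendrocyte list and Zfp536 in the lineage list. Erbb3 itself varied by 1.01 on this scale, so these 3 genes tracked it closely. Trf stood at 3925, 4414 and 3516 CPM in controls 24, 26 and 27 and at 933, 1705 and 744 CPM in cuprizone 30, 31 and 32, the same order of libraries within each group as Erbb3. St18 had a log2 fold change of -1.72 ± 0.29 and Zfp536 one of -1.80 ± 0.32 (edgeR adjusted p = 0.0158 and 0.0172). Both passed with all libraries and missed the threshold without control replicate 24, 26 or 27 or cuprizone replicate 30, at up to 0.0704 for St18 and 0.0775 for Zfp536. Trf, at -1.81 ± 0.34 (edgeR adjusted p = 0.0218), missed it without the same libraries, at up to 0.0987. The difference between the groups enters this measure for every gene.

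**Figure D2:**
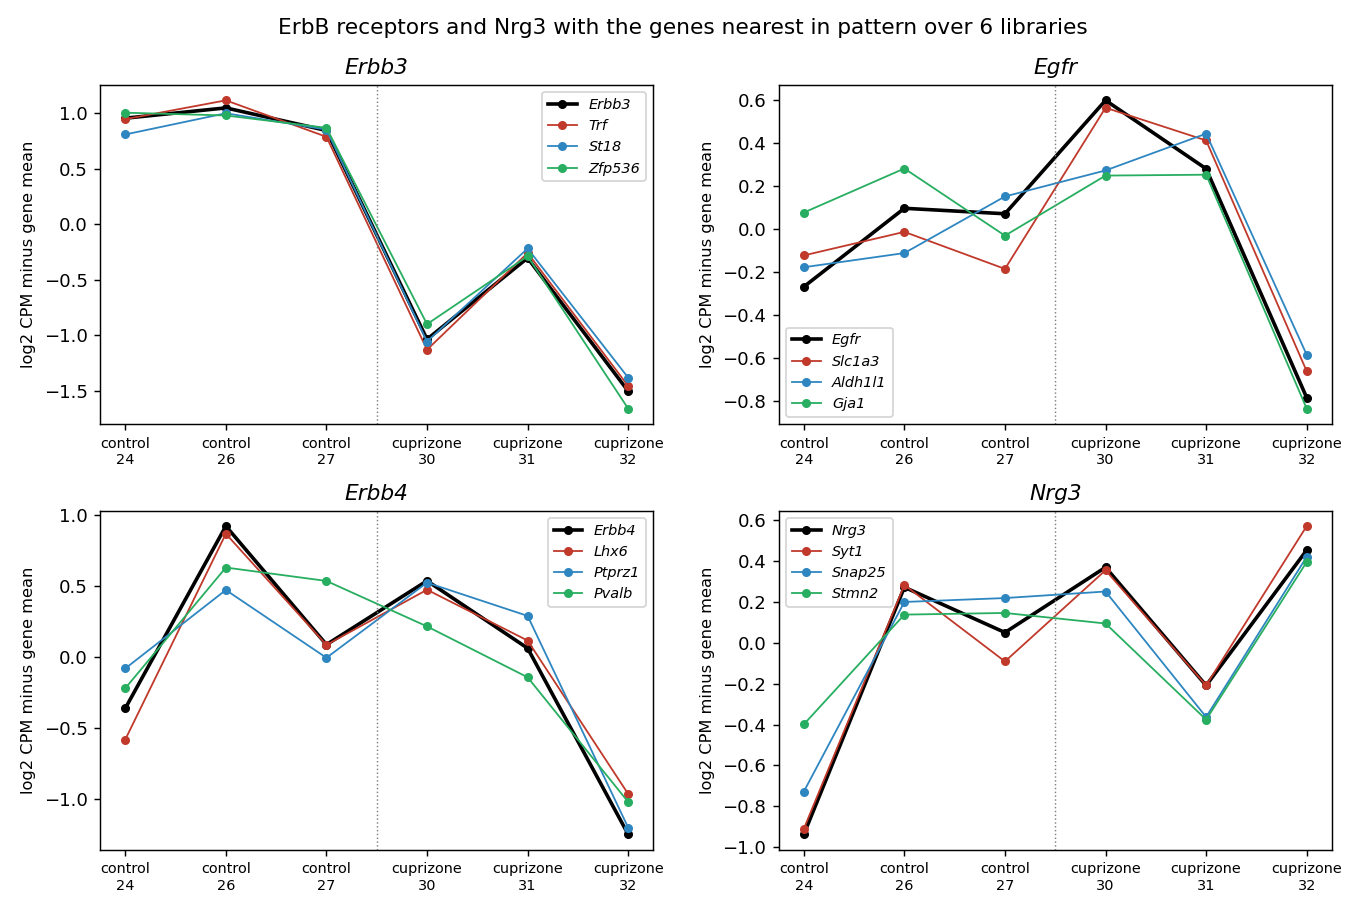
Log2 CPM (0.5 added) minus each gene's mean over 6 libraries for Erbb3, Egfr, Erbb4 and Nrg3 (black) and the genes nearest to each in pattern (colours, from all genes compared for Erbb3 and from the marker lists for the others), with a dotted line between control and cuprizone libraries; lines join libraries for legibility and carry no order. The lines of Erbb3 and Trf nearly coincide at a root mean square difference of 0.06, and Nrg3 follows Syt1 at 0.08.

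Erbb2, the receptor without a ligand of its own that pairs with ErbB3, was at a low level (ENSMUSG00000062312, chromosome 11, 98412470 to 98437716, plus strand). It stood at 7.66, 8.10 and 8.15 CPM in controls 24, 26 and 27, from 130 to 143 reads each. In cuprizone 30, 31 and 32 it stood at 14.7, 10.4 and 6.93 CPM. Libraries 30 and 31 were above all controls and library 32 was below them. Its log2 fold change was 0.42 ± 0.26 (95% interval -0.20 to 1.05; edgeR adjusted p = 0.38), and without cuprizone replicate 32 it was 0.65 (edgeR adjusted p = 0.0863). Among 101 marker genes of lineage stages and other cell types, Tcf7l2, of the newly formed oligodendrocyte list, was nearest in pattern at 0.15. Sox9 and Slc1a3, of the astrocyte list, followed at 0.15 and 0.17, where Erbb2 itself varied by 0.34. Both lists went both ways, with 4 positive and 3 negative changes in the newly formed list and 5 and 5 in the astrocyte list. The part of such cells in the level of Erbb2 was not tested. Erbb2 shares 9 exonic bases with Mien1 on the opposite strand, which had 1083 to 1497 counts a library, and none of the sources used here says whether reads were counted by strand.

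The ratio of Erbb3 to Erbb2 separated the groups. Whether the reads of both genes came from the same cells was not tested. There were 9.10, 9.18 and 7.92 Erbb3 reads per Erbb2 read in controls 24, 26 and 27, and 1.17, 2.78 and 1.78 in cuprizone 30, 31 and 32 (reads, not corrected for length). Every control ratio was above every cuprizone ratio. The mean log2 ratio was 3.12 ± 0.12 in controls and 0.85 ± 0.62 in cuprizone, a difference of -2.28 (2-sided exact permutation p = 0.1, the smallest that 3 against 3 allow). With any single library left out the difference was between -2.59 and -1.97.

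Egfr, the receptor for EGF and TGF-alpha (ENSMUSG00000020122, chromosome 11, 16752203 to 16918158, plus strand), stood at 24.8, 32.02 and 31.5 CPM in controls 24, 26 and 27. In cuprizone 30, 31 and 32 it stood at 45.5, 36.4 and 17.2 CPM. The cuprizone libraries lay on both sides of the controls. Its log2 fold change was 0.17 ± 0.33 (95% interval -0.61 to 0.94; edgeR adjusted p = 0.80). It was 0.48 without cuprizone replicate 32 and -0.13 without cuprizone replicate 30 (edgeR adjusted p = 0.13 and 0.86). Of the fits with a single library left out, only that without cuprizone replicate 30 reversed its sign. Among 101 marker genes of lineage stages and other cell types, the pattern of Egfr was nearest to those of Slc1a3, Aldh1l1 and Gja1, at 0.15, 0.20 and 0.22 on the scale used above, where Egfr itself varied by 0.44. These 3 belong to the astrocyte list: a glutamate transporter, a folate enzyme and a gap junction protein. Slc1a3 was at 1286 CPM in cuprizone replicate 32, against 3005 and 2704 CPM in replicates 30 and 31. Summed over the 10 astrocyte genes, replicate 32 was the lowest of the 6 libraries at 17030 CPM, none was at 0, and the part of these cells in the level of Egfr was not tested.

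Erbb4, the receptor for all neuregulins (ENSMUSG00000062209, chromosome 1, 68032186 to 69108059, minus strand), varied most, relative to its mean, among libraries of the same group. It stood at 30.1, 73.7 and 41.2 CPM in controls 24, 26 and 27 and at 56.4, 40.5 and 16.0 CPM in cuprizone 30, 31 and 32. The groups overlapped, with the highest level in a control and the lowest in a cuprizone library. Across all 6 libraries the log2 fold change was -0.36 ± 0.49 (95% interval -1.50 to 0.78; edgeR adjusted p = 0.70), and it was 0.00 without cuprizone replicate 32 and 0.09 without control replicate 26. Its nearest marker was Lhx6, a transcription factor of interneurons born in the medial ganglionic eminence, at 0.15 where Erbb4 itself varied by 0.69. Ptprz1, a phosphatase of the oligodendrocyte progenitor list, followed at 0.24, and Pvalb, a calcium-binding protein of inhibitory neurons, at 0.29. Lhx6 stood at 14.9, 41.5 and 23.9 CPM in controls and at 31.5, 24.5 and 11.3 CPM in cuprizone, with its highest and lowest levels in the same libraries as Erbb4. Gad1, which makes the transmitter GABA, was at 250 CPM in control replicate 26 and 271 CPM in cuprizone replicate 30, against 76.0 to 131 CPM in the other 4. Over the 8 genes of the inhibitory neuron list the summed level was 587 to 1212 CPM in controls and 574 to 1021 CPM in cuprizone, and none was at 0 throughout. None of the 8 passed in edgeR (1 was at an unadjusted p under 0.05, and DESeq2 called 1 lower). Over the 7 progenitor genes the sum was 681 to 919 CPM in controls and 470 to 833 CPM in cuprizone, where replicate 32 was the lowest, as it was for Erbb4. The part of these cells, inhibitory neurons or progenitors, in the level of Erbb4 was not tested.

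Nrg2 was the neuregulin whose groups did not overlap (ENSMUSG00000060275, chromosome 18, 36017652 to 36197380, minus strand). It encodes a ligand of ErbB3 and ErbB4 and stood at 7.43, 7.54 and 6.06 CPM in controls 24, 26 and 27, from 126, 133 and 104 reads. In cuprizone 30, 31 and 32 it stood at 11.9, 11.5 and 9.44 CPM, from 265, 269 and 200 reads. Every cuprizone library was above every control. The log2 fold change was 0.65 ± 0.17 (95% interval 0.26 to 1.03), with an edgeR unadjusted p of 0.00549 and adjusted p of 0.0631. DESeq2 gave an adjusted p of 0.0146 and edgeR without cuprizone replicate 32 one of 0.0405. Without any other library the edgeR adjusted p was up to 0.22. The markers nearest to Nrg2 in pattern were Tcf7l2 and Bmp4, of the newly formed oligodendrocyte list, at 0.21 and 0.27. Gjb6, of the astrocyte list, was at 0.28, where Nrg2 itself varied by 0.33. The newly formed list did not move as one: of its 7 genes 4 had a positive and 3 a negative change, with Enpp6 at -1.18. Its sum was 1552 to 2176 CPM in controls and 1091 to 1737 CPM in cuprizone. All 7 striatal neuron markers were also higher in each cuprizone library than in any control, as were 12.6% of all genes tested, with a sum of 587 to 902 CPM in controls and 1310 to 2402 CPM in cuprizone, none of them at 0. Among the cuprizone libraries their sum was highest in replicate 32, where Nrg2 was lowest. Drd2 and Rgs9 were among those that passed the test, and Drd2 missed it without control replicate 24 or 26 or cuprizone replicate 30 (edgeR adjusted p up to 0.0868). The part of such cells in the level of Nrg2 was not tested.

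Nrg3, a ligand of ErbB4 made by neurons (ENSMUSG00000041014, chromosome 14, 38368952 to 39473088, minus strand), stood at 4.42, 10.9 and 9.26 CPM in controls 24, 26 and 27. In cuprizone 30, 31 and 32 it stood at 11.7, 7.65 and 12.4 CPM. The groups overlapped, with control replicate 24 the lowest. Nrg3 had a log2 fold change of 0.37 ± 0.34 (95% interval -0.44 to 1.18; edgeR adjusted p = 0.57) and, without control replicate 24, one of 0.09. Nrg3 followed Syt1, the calcium sensor of synaptic vesicles, at 0.08 and Snap25, which fuses vesicles with the membrane, at 0.14, where Nrg3 itself varied by 0.47. Syt1 stood at 218, 500 and 385 CPM in controls and at 525, 355 and 610 CPM in cuprizone. Over the 10 genes of the neuron list, none passed the test and none had an unadjusted p under 0.05 (DESeq2 and limma-voom called none). Their sum was 2200 to 3361 CPM in controls and 2487 to 4823 CPM in cuprizone, none was at 0, and the part of neurons in the level of Nrg3 was not tested.

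Nrg1, the neuregulin that sets myelin thickness in nerve (ENSMUSG00000062991, chromosome 8, 31814551 to 32884029, minus strand), had the lowest level of the 7 members in every library. It had 32, 42 and 32 reads in controls 24, 26 and 27 and 85, 50 and 56 in cuprizone 30, 31 and 32. That is 1.89, 2.38 and 1.86 CPM against 3.83, 2.14 and 2.64 CPM. Cuprizone replicate 31 lay within the controls and the other two were above them. The log2 fold change was 0.49 ± 0.28 (95% interval -0.18 to 1.16; edgeR adjusted p = 0.35). Nrg1 shares 482 exonic bases with the noncoding gene Gm26578 on the opposite strand, which had at most 7 counts in a library.

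Per length, Erbb3 was the leading member in controls and one of several with overlapping levels in cuprizone. RPKM, the CPM divided by the length of the merged exons in kilobases, put Erbb3 at 11.6 ± 0.821 in controls. Erbb4 at 3.91 ± 1.84, Egfr at 2.60 ± 0.357 and Nrg2 at 2.23 ± 0.263 followed, and neighbours among these 3 overlapped over libraries. Erbb2 at 1.53 ± 0.0519 did not overlap Nrg2 in range, overlapped Nrg3 at 1.20 ± 0.493, and Nrg1 was last at 0.197 ± 0.0282. In cuprizone the order was Nrg2 at 3.49 ± 0.427, Erbb3 at 3.25 ± 1.42, Erbb4 at 3.04 ± 1.64, Egfr at 2.92 ± 1.28, Erbb2 at 2.05 ± 0.746, Nrg3 at 1.55 ± 0.375 and Nrg1 at 0.277 ± 0.0840. By the range over the cuprizone libraries only Nrg1 did not overlap its neighbour in that order, although Egfr was above Erbb2 within each of the 3 libraries. Merged exons of all isoforms make long, variably spliced genes such as Nrg1 look lower than any one isoform would.

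Of the summed RPKM of the 4 receptors, Erbb3 made up 65.6%, 54.5% and 58.4% in controls 24, 26 and 27 and 20.1%, 36.2% and 33.1% in cuprizone 30, 31 and 32. Each of the other receptors had a larger mean share in cuprizone. Shares of the same sum are tied, so a lower share of Erbb3 means a higher joint share of the others. In CPM the groups of Egfr, Erbb2 and Erbb4 overlapped, and none of these genes passed the test. Egfr went from 13.3% ± 1.55 to 25.6% ± 2.23 and Erbb2 from 7.87% ± 0.905 to 18.8% ± 3.33, both without overlap between the groups. Erbb4 went from 19.3% ± 6.34 to 25.8% ± 5.61, with overlap. The sum itself was 17.7, 22.8 and 18.4 RPKM in controls and 14.3, 13.3 and 6.20 RPKM in cuprizone. The sum over the 3 neuregulins was 3.20, 4.23 and 3.47 RPKM in controls and 5.89, 4.99 and 5.08 RPKM in cuprizone, lower than that over the receptors in all 6 libraries. Nrg2 made up 55.6% to 74.0% of it in controls and 59.2% to 73.4% in cuprizone.

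**Figure D3:**
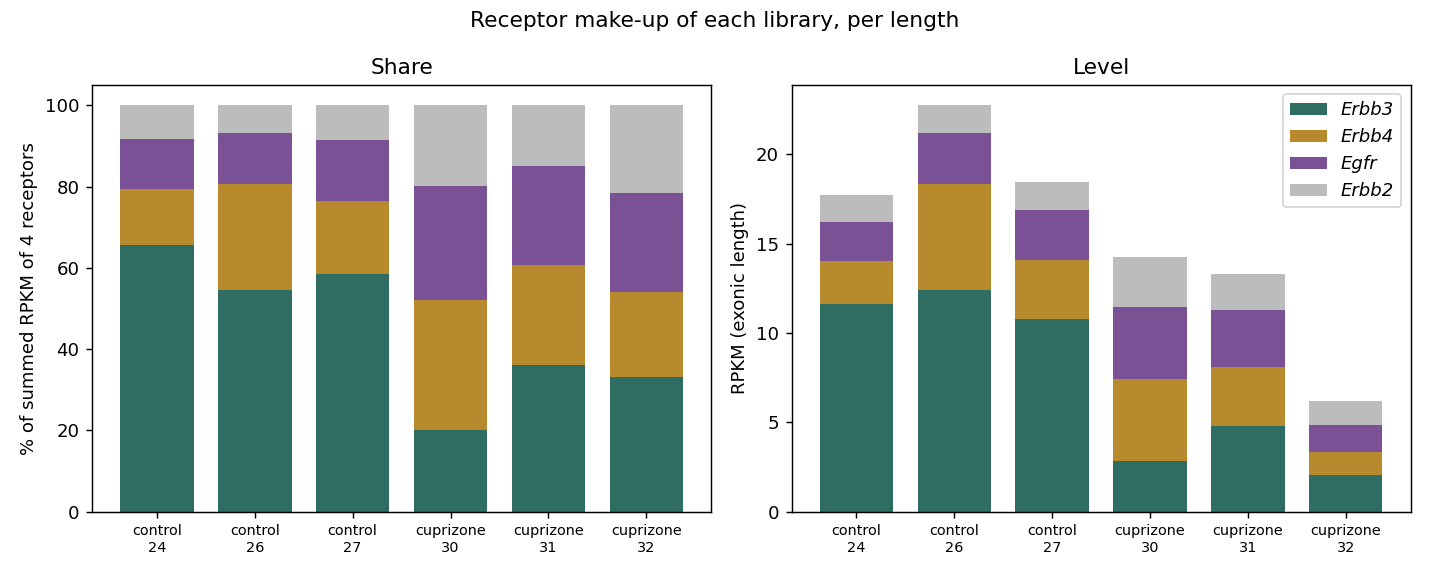
Make-up of the 4 ErbB receptors in each library, as the percentage of their summed RPKM (left) and as RPKM (right), stacked by gene. Erbb3 takes 54.5% to 65.6% of the sum in controls and 20.1% to 36.2% in cuprizone.

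Among the other EGF family ligands, Tgfa was the abundant one and it fell. TGF-alpha is a membrane-bound ligand of EGFR. Tgfa stood at 190, 188 and 182 CPM in controls 24, 26 and 27 and at 101, 116 and 81.8 CPM in cuprizone 30, 31 and 32, with no overlap. Its log2 fold change was -0.91 ± 0.15 (edgeR adjusted p = 0.0131), and it missed the threshold without control replicate 24, 26 or 27 or cuprizone replicate 30 (up to 0.0600). Hbegf, another EGFR ligand, was at 22.6 to 29.0 CPM in controls and 20.4 to 34.4 CPM in cuprizone, and Nrg4, an ErbB4 ligand, at 2.59 to 4.14 CPM and 3.89 to 4.48 CPM. Btc (betacellulin) was under 1 CPM in every library, with a log2 fold change of -0.90 ± 0.58. Hbegf, Nrg4 and Btc did not pass the test (edgeR adjusted p = 0.74, 0.50 and 0.40). Over these 4 genes the median log2 fold change was -0.38, and it was 0.14 and 0.29 with the other filters, which keep 3 and 7 of the 8 ligands. The remaining 4 did not pass the filter on low counts. Egf was at most at 0.855 CPM and Areg and Epgn were at most at 0.0944 and 0.142 CPM. Ereg had no count in any of the 6 libraries, where 3 counts correspond to between 0.128 and 0.177 CPM.

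Of 13 genes listed for neuregulin cleavage and shedding, 3 fell and none rose. Over all genes tested 5.70% fell and 1.87% rose, and these shares also apply to the lists below. The median log2 fold change of the 13 was -0.27, beside 0.02 over all genes tested. These 3 calls also held with each single library left out. Bace1, the beta-secretase that cleaves Nrg1 and Nrg3, stood at 261, 299 and 268 CPM in controls 24, 26 and 27 and at 151, 140 and 124 CPM in cuprizone 30, 31 and 32 (log2 fold change -0.99 ± 0.13, edgeR adjusted p = 0.00619). Adam19, a metalloprotease that sheds neuregulins, had a log2 fold change of -1.48 ± 0.21, from 22.4, 35.5 and 34.8 CPM to 12.6, 10.9 and 9.67 CPM. Aph1a, a subunit of gamma-secretase, had one of -1.57 ± 0.20, from 35.8, 35.4 and 27.1 CPM to 10.1, 13.9 and 9.11 CPM. For all 3 the groups did not overlap. In this list 7 genes were lower in cuprizone without overlap, as were 17.6% of all genes tested. As for Erbb3, fewer cells that hold these transcripts and less of them per cell cannot be told apart. Adam17 and Adam10, the main sheddases of EGF ligands, had log2 fold changes of -0.27 ± 0.12 and -0.25 ± 0.14 and did not pass (edgeR adjusted p = 0.22 and 0.33).

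Most genes that carry the signal from ErbB receptors did not pass the test. Of 37 adaptors and relay enzymes 1 fell and none rose in edgeR. In this list 9 were at an unadjusted p under 0.05, DESeq2 found 6 lower and 1 higher, and edgeR without cuprizone replicate 31 found 3 lower. Of all 16569 genes tested 3864 were at an unadjusted p under 0.05 in edgeR, and DESeq2 called 862 higher and 1400 lower. These totals also apply to the lists below. The median of the 37 was 0.00. The one that fell was Mapk3, which encodes the kinase ERK1, at -0.72 ± 0.16 (edgeR adjusted p = 0.0383). It missed the threshold without any library but cuprizone replicate 32 (up to 0.138), with upper-quartile scaling (0.0530) and with no filter on low counts (0.0505). Of 20 tested genes listed here as ErbB brakes 2 fell and none rose, with a median of -0.0050, or 0.0512 with upper-quartile scaling. DESeq2 called 1 of the list higher, Dusp6, and 4 had an unadjusted p under 0.05 in edgeR. Dusp6, Spry2 and Spry4 are also in the list of growth factor response genes below, so Dusp6 is counted again there. That each restrains ErbB signalling in these cells was not tested. The 2 that fell were Itch, a ubiquitin ligase, at -0.82 ± 0.15, and Lrig3, a membrane protein with leucine-rich repeats, at -1.29 ± 0.29. Itch missed the threshold at up to 0.0737 without cuprizone replicate 30, control 26 or control 27, and Lrig3 at up to 0.137 without the same libraries or control replicate 24. Of 10 scaffolds 1 fell, Magi1, at -0.55 ± 0.12. It missed the threshold, at up to 0.121, without any library but cuprizone replicate 32. The median of the scaffolds was 0.10, and DESeq2 called 3 of them lower.

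Of 19 genes known to respond to growth factors through ERK, 3 rose and 1 fell in edgeR, and 8 rose and 1 fell in DESeq2. In edgeR 1.87% of all genes tested rose and 5.70% fell. DESeq2 called 862 of the 16569 genes higher and 1400 lower. The median log2 fold change of the 19 was 0.63. Myc, a driver of growth, stood at 10.9, 9.07 and 5.71 CPM in controls and at 23.5, 27.8 and 20.5 CPM in cuprizone (log2 fold change 1.48 ± 0.25, edgeR adjusted p = 0.0139). Fos and Fosl1, subunits of the transcription factor AP-1, had log2 fold changes of 1.30 ± 0.28 and 1.17 ± 0.24. Etv1, an ETS factor, had one of -0.92 ± 0.19. Each of these 4 calls ended with some library left out. Without control replicate 24, 26 or 27, 1 gene rose and none fell, and without cuprizone replicate 30 none passed. Many other signals reach these genes, and microglial genes, summed over 11, were at 1194 to 2332 CPM in controls and 1805 to 4154 CPM in cuprizone, none of them at 0. None of the 11 passed in edgeR (DESeq2 called 2 higher, and 3 had an unadjusted p under 0.05). The 7 striatal neuron genes summed to 587 to 902 CPM in controls and 1310 to 2402 CPM in cuprizone. Of them 3 passed as higher in edgeR, where 1.87% of all genes tested did. The part of microglia or of striatal neurons in these rises was not tested.

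Among 15 receptors for other growth factors 2 fell and none rose, where 5.70% of all genes tested fell and 1.87% rose. The median of the 15 was 0.10. Fgfr2, a receptor for fibroblast growth factors found on oligodendrocytes, stood at 296, 363 and 276 CPM in controls 24, 26 and 27 and at 113, 154 and 71.0 CPM in cuprizone 30, 31 and 32. Its log2 fold change was -1.47 ± 0.28 (edgeR adjusted p = 0.0238, and up to 0.0941 without either cuprizone replicate 30 or any 1 control). Tyro3, a receptor for Gas6 and protein S, had one of -0.99 ± 0.15 (edgeR adjusted p = 0.0105, 0.0526 without control replicate 26). Without cuprizone replicate 32, 2 of the 15 rose and 3 fell, and without control replicate 26 none passed. The differences between the changes of Erbb3, Fgfr2 and Tyro3 were not tested.

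**Figure D4:**
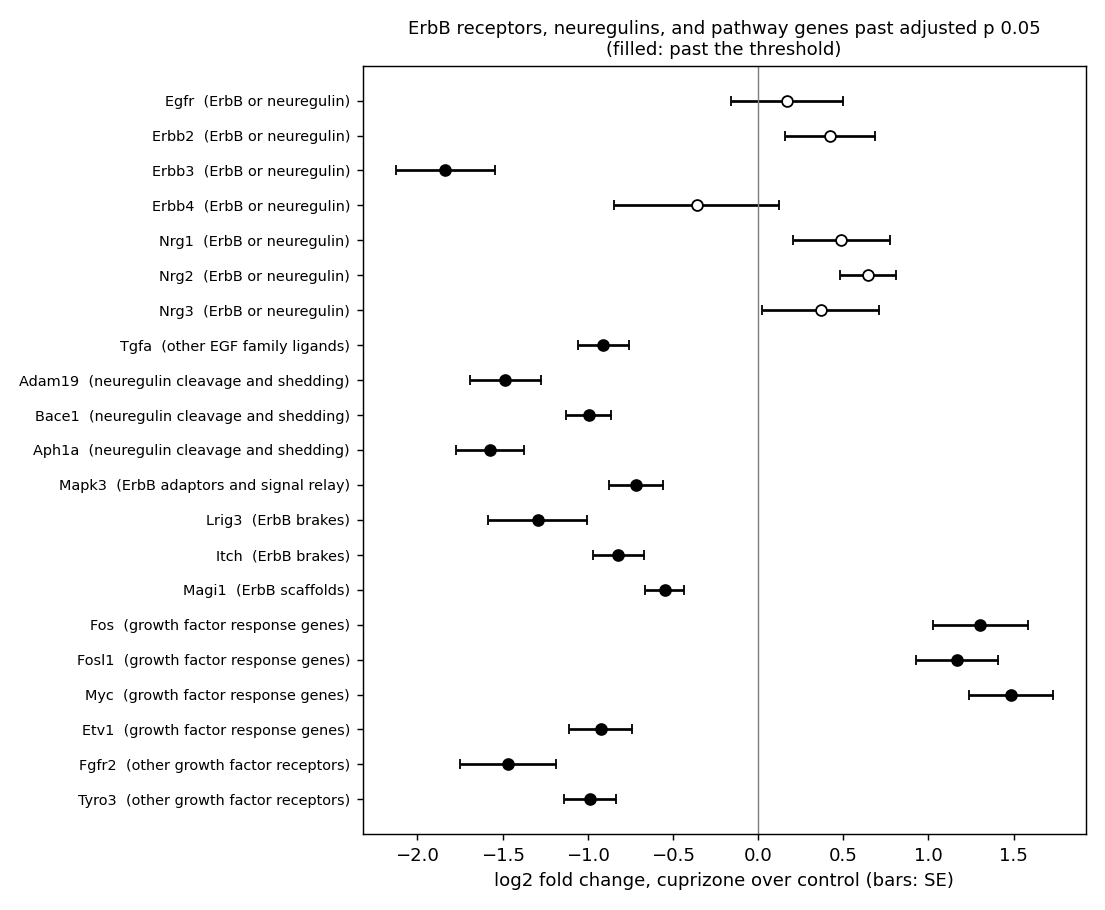
Log2 fold change of cuprizone over control with its SE for the 7 ErbB receptor and neuregulin genes and for the 14 genes of the pathway lists past an adjusted p of 0.05 (filled points are past it, open points are not). Erbb3 at -1.83 has the lowest value shown, and Fos, Fosl1 and Myc are the only filled points above 0.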

How the data were processed

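The values are the authors' deposited counts of reads for each Ensembl gene, whole numbers without normalization, in 3 control and 3 cuprizone libraries. Per the labels' protocols, anti-HA pull-down RNA was made into libraries with a Kapa kit. The submitters' processing notes name bcl2fastq 2.17 and mm10. None of the sources used here gives the aligner, the counting program, the annotation or the use of strand. Names, positions and exonic lengths came from GENCODE M21 (GRCm38, the same assembly), which matched 37607 of 39017 identifiers; the others held 0.393% to 0.467% of counts and stayed in the tests. The RefSeq promoter table had no entry for Erbb3, Nrg1 and Nrg2 and was not used. Coding stretches were located by translating the longest reading frame of each receptor.

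The test was that of edgeR 4.0.16 under R 4.3.3, with filterByExpr (minimum count 10, minimum total 15), TMM scaling (factors 0.915 to 1.11), glmQLFit with robust estimation and glmQLFTest, 2-sided, Benjamini-Hochberg adjustment over 16569 genes, threshold 0.05. In all 310 genes were higher and 945 lower. SEs were derived from the log2 fold change and its F statistic, and intervals use the fit's degrees of freedom. CPM and RPKM use TMM-scaled library sizes. Alternatives were limma-voom (limma 3.58.1), DESeq2 1.42.0, other scalings and filters, and leaving out each library. On simulated counts (16400 genes) the test recovered 84%, 42%, 42% and 94% of 50 genes each changed by -2, -1, 1 and 2 (log2). Of all calls on these counts 6.43% were genes left unchanged.

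Members and gene lists were chosen with earlier results of these data known. Named genes are the 7 members, every other EGF ligand, up to 4 genes past the threshold per pathway list, a fixed set (Rpl22, Olig1, Olig2, Sox10, Mbp, Pdgfra, Gfap, Snap25, Gad1) and the 3 genes nearest in pattern to a member that passed. Other named genes, including the markers nearest in pattern to Egfr, Erbb2, Erbb4, Nrg2 and Nrg3, were chosen after their values were seen. Olig1, Mbp and Gfap, of the fixed set, had log2 fold changes of -1.12, -2.62 and 0.66. For some marker lists the calls are not given above. Of these, newly formed oligodendrocyte had 1 gene lower in edgeR, Enpp6. The others had none past the threshold in edgeR: neural progenitor (1 at an unadjusted p under 0.05, 1 called by DESeq2), endothelial and mural (3 and 2), ependymal (0 and 0) and astrocyte (0 and 0).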

Additional observations from a re-analysis of the deposited data

How the results depend on the processing

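No paired analysis was possible because the groups share no replicate number. With other scalings (RLE, upper-quartile, or TMM computed after dropping mature oligodendrocyte markers and the top 20 genes by abundance), other filters (none, or 3 libraries above 1 CPM), limma-voom and DESeq2, Erbb3 had log2 fold changes of -1.92 to -1.78 and stayed past the threshold, and no member changed sign. DESeq2 called 862 genes higher and 1400 lower, and called 1 member higher, Nrg2, at 0.66. With single libraries left out, Erbb3 ran from -2.24 to -1.59 (-1.78 without control replicate 26 and -1.75 without cuprizone replicate 30, where no member was lower), Nrg2 from 0.55 to 0.74, Erbb4 from -0.77 to 0.09, Egfr from -0.13 to 0.48, Erbb2 from 0.12 to 0.65, Nrg1 from 0.22 to 0.66 and Nrg3 from 0.09 to 0.64. Erbb4 was reversed at 0.0900 without control replicate 26 and at 0.0014 without cuprizone replicate 32, and Egfr at -0.13 without cuprizone replicate 30. Members called higher numbered 0 to 1 (1 without cuprizone replicate 32, with Nrg2 at 0.74) and lower 0 to 1. Over all genes 65 to 464 were higher and 474 to 963 lower. Fewer libraries enter these fits; other causes were not tested. Nrg1 rests on the fewest reads of the members, 32 to 85 a library.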
